A study of Mus musculus with 4 samples.

Results

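Coagulation and its brakes were described here at 9 genes, F3, Thbd, Procr, Tfpi, Tfpi2, Vwf, F2r, F8 and Pros1, taken by symbol from the 52636 genes counted in single cells of mouse glomeruli. The cells came from 2 libraries labelled young and 2 labelled aged, all from kidney and all untreated. Glomeruli, the filtering tufts of the kidney, had been loaded with magnetic beads by perfusion, pulled out with a magnet and digested to single cells, and 3' RNA tags were counted as unique molecular identifiers (UMIs) on the Chromium v3.1 chemistry. Age in months, sex, strain and the number of mice behind a library are not given in the labels, so p-values measure the spread between libraries, which may be technical. Nothing in the labels describes a genotype, allele or agent in either group.

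Clotting starts when tissue factor, the product of F3, meets factor VII in plasma and leads to thrombin. Factor VIII, encoded by F8 and carried in blood by von Willebrand factor (Vwf), accelerates thrombin formation, while tissue factor pathway inhibitor (Tfpi) and its relative Tfpi2 restrain proteases of the pathway. Thrombomodulin (Thbd) on endothelium turns thrombin towards protein C, the endothelial protein C receptor (Procr) presents protein C for activation, and protein S (Pros1) is the cofactor of activated protein C. F2r encodes PAR1, the receptor through which thrombin signals to cells. In the glomerulus a fenestrated endothelium faces the blood, mesangial cells hold the capillary loops, podocytes cover them on the urinary side, and parietal epithelial cells line the capsule.

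The 4 libraries held 33323 barcodes and 124600182 UMIs, and 28000 cells passed the filters (5035 and 6976 in young replicates 1 and 2, 9187 and 6802 in aged replicates 1 and 2). Clusters were named from marker genes that include no member, so each class below is podocyte-like, endothelial-like and so on, and 21277 cells in 22 of 29 clusters had a name. Young replicate 2 stood apart. Its median was 1258 UMIs per cell against 2715 to 3730 in the other libraries, and 55.0% of its cells fell in clusters carrying markers of unrelated classes, against 0.559% to 2.07% elsewhere. Those cells were left out of the sums that were tested. Libraries shared 9 to 31 barcodes pairwise. Levels are UMI counts of a gene scaled to the total UMIs of the class and written as CPM, with TMM factors, which correct for the make-up of each library, where a test is given, and a gene was called at an adjusted p under 0.05 in edgeR's quasi-likelihood test over all genes of the class.

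Among the classes with all 4 libraries, each member had its own place. F3 was carried mainly by podocytes, which held 96.0% and 91.4% of the F3 UMIs of named cells in young replicates 1 and 2 and 80.5% and 78.2% in aged replicates 1 and 2. By level, F3 averaged 220 CPM in parietal epithelial cells and 169 CPM in podocytes, with overlapping libraries, then 52.7 CPM in the smooth muscle and renin class, 6.11 CPM in mesangial cells and 0.912 CPM in endothelium, each of these 3 below the lowest library of the class before it. Tubule cells, fewer than 20 in a library and so not ranked, held 12 and 2 F3 UMIs in young and 87 and 64 in aged libraries. F3 had a UMI in 0 of 328 B cells, which allows a share of up to 0.915%.

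The endothelium held most UMIs of the blood-facing members. Endothelial cells held 97.1% to 98.2% of the F8 UMIs, 93.3% to 96.6% of the Thbd UMIs and 88.3% to 95.5% of the Procr UMIs in each library. Mean F8 was 364 CPM in endothelium, above every library of the next class, and mean Thbd was 323 CPM, followed by 73.6 CPM in monocytes and dendritic cells without overlap. Procr averaged 40.9 CPM in endothelium but its lowest endothelial library overlapped the highest of the smooth muscle and renin class. Vwf was low, at a mean of 3.69 CPM in endothelium. Tfpi2 was close to its floor, at a mean of 2.26 CPM in endothelium and a mean of no more than 0.700 CPM in any other class.

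The remaining members were shared between classes. F2r averaged 585 CPM in mesangial cells, above every library of endothelium at 205 CPM, which overlapped parietal epithelial cells at 139 CPM. Pros1 averaged 277 CPM in podocytes and 127 CPM in endothelium with overlapping libraries, and 89.2 CPM in mesangial cells, below both. Tfpi averaged 91.5 CPM in parietal epithelial cells, 57.8 CPM in endothelium and 52.0 CPM in mesangial cells, 3 classes that overlapped, and 22.8 CPM in podocytes. These are orders within a gene; the 3' counts do not allow one member's level to be set against another's.

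**Figure D1:**
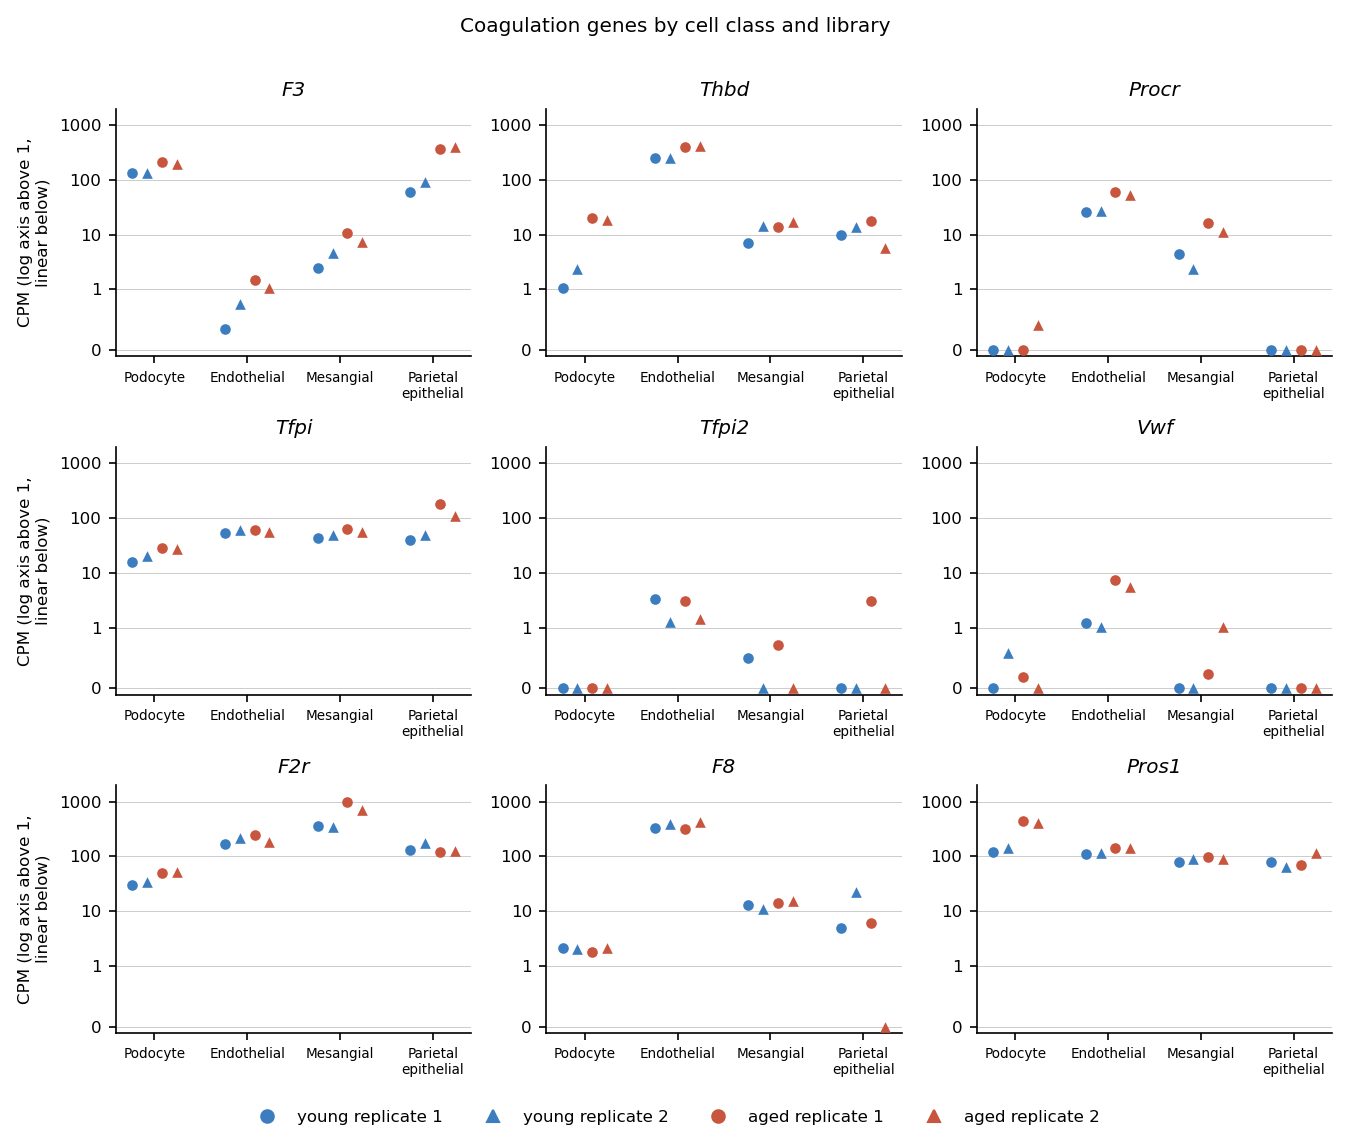
Level of each member (CPM, log axis above 1 and linear below) in 4 glomerular classes, with 1 point per library and young and aged libraries in different colours. F3 is high in podocytes and parietal epithelial cells, Thbd, Procr, F8 and Vwf are highest in endothelium, F2r is highest in mesangial cells, and Pros1 in podocytes separates the aged from the young libraries.

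In the GRCm38 annotation, F3 (ENSMUSG00000028128) spans bases 121723537 to 121735048 of chromosome 3 on the plus strand and Procr (ENSMUSG00000027611) spans 155751117 to 155755471 of chromosome 2, also plus. F2r (ENSMUSG00000048376) lies at 95601803 to 95618487 of chromosome 13 on the minus strand, and Pros1 (ENSMUSG00000022912) at 62854307 to 62929346 of chromosome 16 on the plus strand. Thbd (ENSMUSG00000074743) and Tfpi (ENSMUSG00000027082) are on the minus strand of chromosome 2 at 148404466 to 148408188 and 84432855 to 84476775. Vwf (ENSMUSG00000001930) is at 125546774 to 125686679 of chromosome 6, plus, and Tfpi2 (ENSMUSG00000029664) at 3962595 to 3988919 of the same chromosome, minus. F8 (ENSMUSG00000031196), at 75172715 to 75382615 of chromosome X on the minus strand, overlaps Gm8522 on its own strand and Gm6039 and Fundc2 on the other, and how the counting treated shared reads is not given in the sources used here.

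RefSeq promoter windows matched 7 of the 9 members; Thbd and Vwf had no entry. The windows are shown for 4 members with 1 RefSeq start each that were called in podocytes, endothelium or mesangial cells, as the 250 bases before the RefSeq start (GRCm38.p6), read 5′ to 3′ on the gene's strand. Capitals mark an AP-1 motif (TGANTCA), a KLF motif (CCACCC) or an Sp1 motif (GGGCGG) on either strand, and overlapping matches run together.
F3, chr3:121723287-121723536, plus: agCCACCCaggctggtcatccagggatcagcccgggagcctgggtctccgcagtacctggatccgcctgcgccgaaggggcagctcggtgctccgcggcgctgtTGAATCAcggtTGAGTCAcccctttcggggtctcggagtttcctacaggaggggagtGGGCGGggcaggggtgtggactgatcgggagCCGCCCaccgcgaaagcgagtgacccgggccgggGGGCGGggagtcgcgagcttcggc
Procr, chr2:155750967-155751216, plus: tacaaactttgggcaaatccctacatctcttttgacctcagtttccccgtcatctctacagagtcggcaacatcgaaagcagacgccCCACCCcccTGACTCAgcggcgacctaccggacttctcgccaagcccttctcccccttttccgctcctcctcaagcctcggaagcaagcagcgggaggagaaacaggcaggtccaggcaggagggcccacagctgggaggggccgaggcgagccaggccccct
F2r, chr13:95618467-95618716, minus: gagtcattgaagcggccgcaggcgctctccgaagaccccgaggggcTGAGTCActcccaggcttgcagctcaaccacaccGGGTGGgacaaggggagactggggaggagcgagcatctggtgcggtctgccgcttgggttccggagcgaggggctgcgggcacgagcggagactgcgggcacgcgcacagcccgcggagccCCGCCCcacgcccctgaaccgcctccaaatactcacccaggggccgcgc
Pros1, chr16:62854057-62854306, plus: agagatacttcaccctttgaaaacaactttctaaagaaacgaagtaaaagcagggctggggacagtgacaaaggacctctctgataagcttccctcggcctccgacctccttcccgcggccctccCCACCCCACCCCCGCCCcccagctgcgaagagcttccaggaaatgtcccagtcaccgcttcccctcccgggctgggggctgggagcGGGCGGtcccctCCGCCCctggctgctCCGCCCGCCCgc
The F3 window held 2 AP-1, 1 KLF and 3 Sp1 matches, the Procr window 1 AP-1 and 1 KLF, the F2r window 1 of each, and the Pros1 window 2 KLF and 5 Sp1 and no AP-1. Of 32851 promoter windows of the same length, 6.75% held the AP-1 letters, 28.1% the KLF letters and 32.7% the Sp1 letters. Both Tfpi windows held 1 Sp1 match and none of the other motifs, and the window of F8, which was called in the arterial subclass alone, held no match to any motif searched. TATAAA on the sense strand (7.59% of windows), GCGNGGGCG on either strand (4.70%) and the NF-kB motif (3.90%) had no match in the 4 windows shown. A match is a description of the letters and not a measured site.

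In podocytes Pros1, Thbd, F3, F2r and Tfpi were higher in the aged libraries, the call for Pros1 being the only one of these that every alternative kept. Pros1, the cofactor of activated protein C, was 3.30-fold higher, Thbd was low in every library but 11.2-fold higher, and F3, F2r and Tfpi were 1.53 to 1.54-fold higher. Groups without overlap made up 45.8% of the genes tested. Of the 9 members, 6 passed the filter on low counts and 5 of these were higher in the aged libraries, against 4.02% of the 10863 genes tested in podocytes that were called higher and 6.11% called in either direction. Thbd reached the filter level in 1 young and 2 aged libraries, so it entered the test through the aged group. F8 reached it in 2 young and 1 aged. The podocyte sums covered 1752 and 584 young cells and 986 and 654 aged cells.

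F3 stood at 134 and 135 CPM in the young libraries and 211 and 198 CPM in the aged ones. The aged libraries were above the young, at a log2 difference of 0.61 (SE 0.13, edgeR adjusted p = 0.00213). F3 UMIs were found in 38.3% and 42.6% of young podocytes and 52.6% and 59.0% of aged ones, at medians of 4198 and 5800 UMIs per young cell and 5826 and 7678 per aged cell. With every podocyte thinned to 1000 UMIs, leaving out the 1 to 17 cells per library with fewer, the shares were 11.7% and 12.9% in young and 18.2% and 17.4% in aged, above the B cells, whose library medians were 1210 to 1727 UMIs. The F3 call was lost without aged replicate 1 (log2 0.57, adjusted p = 0.208) and without aged replicate 2 (0.65, adjusted p = 0.0954). With the mixed cells of young replicate 2 and the other libraries kept it was lost as well (0.73, adjusted p = 0.0809). It stayed without either young library (adjusted p 0.000900 to 0.0188).

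Pros1 measured 118 and 142 CPM in young podocytes and 447 and 412 CPM in aged ones. No young library came near the aged ones, and the log2 difference was 1.73 (SE 0.14, edgeR adjusted p = 3.83e-10). A Pros1 UMI was present in 35.6% and 47.8% of young podocytes and in 83.9% and 87.2% of aged podocytes. After thinning to 1000 UMIs the shares were 11.2% and 12.5% against 33.7% and 31.3%, and 2 of 328 B cells (0.610%) had one. Pros1 was called under all 16 alternatives tried, with log2 differences from 1.58 to 1.88. It was higher in each of the 2 podocyte clusters, at 118 and 148 CPM in young and 449 and 409 CPM in aged libraries in the larger, and 112 and 162 CPM against 413 and 348 CPM in the smaller (without TMM).

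Thbd gave 8 UMIs in each young podocyte sum and 111 and 87 UMIs in the aged ones, or 1.06 and 2.36 CPM against 20.0 and 18.2 CPM. Both young libraries were far below both aged ones, and the log2 difference was 3.68 (SE 0.32, edgeR adjusted p = 2.31e-09). Thbd UMIs were seen in 0.457% and 1.37% of young podocytes and 8.42% and 9.94% of aged ones, against 3 of 328 B cells (0.915%), which are shallower. Thinned to 1000 UMIs, the shares were 0.0572% and 0.529% in young and 2.23% and 1.08% in aged podocytes, so both young libraries were below the B cell share and aged replicate 2 was close to it. The aged UMIs came from 83 and 65 cells, most with 1 UMI (71 and 49 cells), and the highest cell had 15 and 7.

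Endothelial RNA is one source that podocyte counts could hold, and its markers were measured beside Thbd. Summed over 11 endothelial markers, all of them detected in each library, podocytes had 40.5 and 118 CPM in young and 78.7 and 53.9 CPM in aged libraries. As a percentage of the endothelial level in the same library, those markers stood at 0.294% and 0.870% in young and 0.586% and 0.452% in aged podocytes, and F8 at 0.631%, 0.510%, 0.610% and 0.502% in the same order. Thbd stood at 0.413% and 0.912% in young podocytes and at 5.33% and 4.46% in aged ones. An endothelial marker UMI was present in 22.9% and 26.2% of aged podocytes with Thbd and in 14.95% and 14.94% of those without, and in young libraries in 37.5% and 75.0% of the 8 and 8 cells with Thbd against 7.22% and 24.7% of the rest. The summed endothelial markers were 282 and 205 CPM in aged podocytes with Thbd and 57.5 and 31.7 CPM in those without, and 1050 and 1167 CPM against 26.3 and 106 CPM in young ones. They were thus higher in cells with Thbd in all 4 libraries. Macrophage markers summed to 7.15 and 9.66 CPM in young podocytes and to 11.2 and 15.25 CPM in aged ones. The part of endothelial or macrophage RNA in the Thbd result was not tested.

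The Thbd call in podocytes depended on which cells of young replicate 2 were named. Clustering at resolution 2 raised the podocytes of that library from 584 to 1559, its podocyte Thbd from 2.49 to 21.7 CPM, its F8 from 2.18 to 20.1 CPM and its endothelial markers from 118 to 577 CPM, without TMM. The other 3 libraries kept podocyte Thbd at 1.04 to 1.16 CPM (young replicate 1), 19.8 to 21.0 CPM (aged replicate 1) and 17.5 to 19.0 CPM (aged replicate 2) under each way of naming. The log2 difference was then 0.91 (adjusted p = 0.691) at resolution 2, which gives smaller clusters. It was 1.00 (0.658) with cells named one by one from their own markers and -0.20 (0.962) with the mixed cells kept in their cluster's class. Over the 16 alternatives 13 called Thbd, and the adjusted p ran from 1.18e-29 to 0.962. Without young replicate 2 the log2 difference was 4.16 (adjusted p = 1.73e-07).

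**Figure D2:**
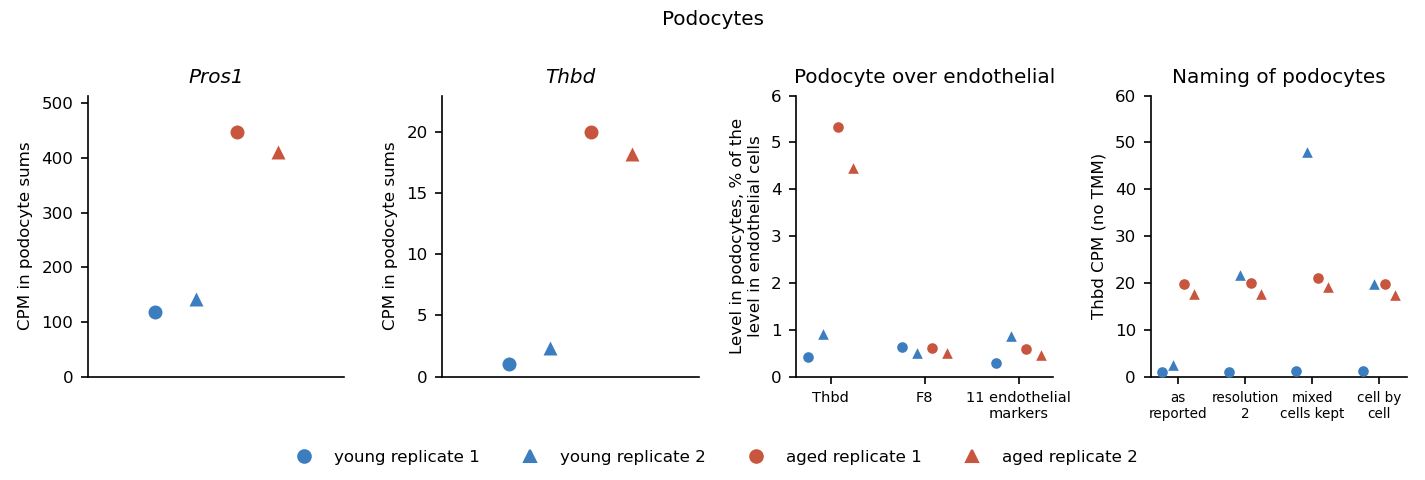
From left to right, Pros1 and Thbd levels in podocytes (CPM), podocyte levels of Thbd, F8 and 11 summed endothelial markers as a percentage of the endothelial level, and podocyte Thbd (CPM without TMM) under 4 ways of naming podocytes, with 1 point per library. Both genes are higher in the aged libraries as reported (20.0 and 18.2 CPM for Thbd), while the Thbd point of young replicate 2 lies at 21.7 CPM at resolution 2 and 47.9 CPM with mixed cells kept.

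The other podocyte members changed less. F2r measured 30.6 and 34.8 CPM in young and 48.8 and 51.3 CPM in aged podocytes (log2 0.63, SE 0.15, edgeR adjusted p = 0.00791). Tfpi measured 15.6 and 20.3 CPM in young and 28.6 and 26.8 CPM in aged podocytes (log2 0.67, SE 0.19, edgeR adjusted p = 0.0269). For both genes the aged libraries were above the young, but 7 of 16 alternatives did not call them. These were DESeq2 (adjusted p = 0.137 for F2r and 0.356 for Tfpi), the fits without young replicate 1 (0.0885 and 0.216), without aged replicate 1 (0.0981 and 0.291) and without aged replicate 2 (0.226 and 0.159), and the 3 other ways of naming cells. With mixed cells kept, F2r had a log2 difference of 0.16 (adjusted p = 0.866) and Tfpi one of 0.45 (0.495). At resolution 2 the values were 0.39 (0.417) and 0.56 (0.234), and with cells named one by one 0.35 (0.505) and 0.64 (0.157). F2r in young replicate 2 was 36.8 CPM without TMM as reported, 48.9 CPM at resolution 2, 50.9 CPM one by one and 62.8 CPM with mixed cells kept, the last above both aged libraries (49.2 and 50.1 CPM). F8 did not pass the test, at 2.12 and 2.06 CPM in young and 1.80 and 2.10 CPM in aged podocytes. Procr, Vwf and Tfpi2 had 0 to 2 UMIs per podocyte sum and were not tested.

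In endothelium the surface anticoagulants and the platelet tether Vwf were higher in the aged libraries, while F8, F2r, Tfpi, Tfpi2 and Pros1 did not pass the test. Procr was 2.15-fold higher, Thbd 1.63-fold higher and Vwf 5.85-fold higher. All 9 members passed the filter, and 3 were called, all higher, against 3.38% of the 12973 genes tested in endothelium that were called higher and 5.02% called in either direction. F3, not called, reached the filter level in 0 young and 2 aged libraries. The sums covered 2199 and 1250 young and 5572 and 3921 aged cells.

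Thbd measured 249 and 248 CPM in the young libraries and 394 and 418 CPM in the aged ones. The young libraries were nearly equal and both were below the aged pair, with a log2 difference of 0.67 (SE 0.14, edgeR adjusted p = 0.0131). Procr measured 25.5 and 27.3 CPM in young and 61.4 and 52.2 CPM in aged endothelium, also without overlap (log2 1.07, SE 0.15, edgeR adjusted p = 0.000915). Vwf rested on few counts, 7 and 4 UMIs in young and 104 and 78 UMIs in aged libraries, or 1.22 and 1.02 CPM against 7.51 and 5.58 CPM. Its aged libraries were well above the young (log2 2.48, SE 0.39, edgeR adjusted p = 0.0017).

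F8 ranged from 326 and 388 CPM in young to 310 and 426 CPM in aged endothelium, and the groups overlapped (log2 0.01, edgeR adjusted p = 0.987). F2r measured 170 and 212 CPM in young and 250 and 186 CPM in aged libraries, again overlapping. Pros1, at 112 and 116 CPM in young and 139 and 141 CPM in aged endothelium, had aged libraries above young but did not pass the test (log2 0.26, SE 0.13, edgeR adjusted p = 0.316), where 48.5% of all genes tested had groups that did not overlap. Tfpi lay at 53.0 and 61.1 CPM in young and 61.1 and 55.4 CPM in aged endothelium. F3 had 2 and 3 UMIs in young and 21 and 15 UMIs in aged endothelium and was not called (log2 1.26, adjusted p = 0.318). Tfpi2, which inhibits proteases of the matrix and of clotting, lay between 1.28 and 3.30 CPM in all 4 libraries.

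Each call in the whole endothelial class was lost when either young library was left out. EdgeR then called 0 genes of the class, with 1764 (without young replicate 1) and 1531 (without young replicate 2) at an unadjusted p under 0.05, while DESeq2 on all 4 libraries called 478. Without young replicate 1 the log2 differences were 0.68 for Thbd, 1.02 for Procr and 2.63 for Vwf (adjusted p 0.342, 0.332 and 0.341), and without young replicate 2 they were 0.68, 1.13 and 2.40 (0.298, 0.251 and 0.270). Thbd was also lost without aged replicate 2 (0.63, adjusted p = 0.0641), and all 3 without a filter on low counts (0.213, 0.204 and 0.211). Beside these members, the summed level of 8 endothelial activation genes was 564 and 637 CPM in young and 1102 and 1358 CPM in aged endothelium, and macrophage markers summed to 2.64 and 5.92 CPM against 17.4 and 20.1 CPM. Podocyte markers summed to 779 and 1160 CPM in young and 683 and 674 CPM in aged endothelium. The part of other cells' RNA in these results was not tested.

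Within endothelium, Thbd and Procr were higher in the aged capillary cells, and Vwf, F8 and Procr in the aged arterial cells; whether the differences themselves differ between the subclasses was not tested. In the glomerular capillary class (1795 and 976 young, 4200 and 3110 aged cells) 2 members were called, both higher, against 4.86% of 12429 genes called in either direction and 3.34% called higher. Thbd measured 220 and 211 CPM in young and 372 and 377 CPM in aged capillary cells (log2 0.76, SE 0.15, edgeR adjusted p = 0.00567). Procr measured 23.8 and 27.3 CPM in young and 60.9 and 50.6 CPM in aged capillary cells (log2 1.10, SE 0.17, edgeR adjusted p = 0.000761). Both calls stood under the replicate block. Over the block and the fits without each library in turn, the log2 difference was 0.75 to 0.79 for Thbd and 0.97 to 1.23 for Procr. Of 8 endothelial clusters, Thbd was higher in both aged libraries in 6, lower in 1 and overlapping in 1. Procr was higher in 6 and overlapped in 2, including the largest capillary cluster, of 3427 cells. The capillary cluster led by Selp and Sele held 145 and 130 young and 715 and 586 aged cells before mixed cells were left out. The part of this mix in the calls was not tested. Capillary F8 overlapped between the groups, at 384 and 463 CPM in young and 345 and 473 CPM in aged libraries (log2 -0.08, adjusted p = 0.876). Capillary Vwf was at 0 UMIs in both young libraries and at 7 and 9 UMIs in the aged ones, which came from 3 and 2 cells. With so few cells behind these UMIs no fold is given, and the difference was not tested.

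In the arterial class (404 and 274 young, 1372 and 811 aged cells) 3 members were called, all higher, against 5.09% of 9573 genes called in either direction and 3.14% called higher. Vwf measured 6.19 and 4.89 CPM in young and 35.9 and 27.9 CPM in aged arterial cells (log2 2.45, SE 0.38, edgeR adjusted p = 7.28e-05). F8 measured 91.0 and 115 CPM in young and 159 and 206 CPM in aged arterial cells (log2 0.80, SE 0.18, edgeR adjusted p = 0.00575). In both genes every aged library was above every young one. Procr was also higher, from 32.7 and 28.1 CPM to 62.1 and 59.5 CPM (log2 0.95, SE 0.22, edgeR adjusted p = 0.00794). Thbd, at 368 and 392 CPM in young and 476 and 602 CPM in aged arterial cells, did not pass the test (log2 0.46, SE 0.16, edgeR adjusted p = 0.0898), where 48.1% of the genes tested had groups that did not overlap.

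The arterial calls were lost without young replicate 1 (adjusted p 0.106 for Vwf, 0.328 for F8, 0.181 for Procr) and without young replicate 2 (0.0648, 0.153 and 0.239), and F8 also without aged replicate 2 (0.0534). With the replicate block 5 arterial members were called, Thbd (log2 0.45, adjusted p = 0.00817) and F2r (0.48, 0.0389) being added. The arterial class held 2 clusters whose mix differed between libraries: the one led by Esm1 and Igfbp3 made up 52.2% and 29.9% of young and 62.2% and 57.8% of aged arterial cells. That cluster held 176 of the 193 endothelial Vwf UMIs. Within it Vwf was 15.5 and 19.1 CPM in young and 57.1 and 53.7 CPM in aged libraries, so the aged libraries were higher there too, while F8 overlapped at 162 and 211 CPM against 166 and 226 CPM. In the other arterial cluster, led by Tspan8 and Thbs2, F8 was 46.3 and 94.3 CPM in young and 124 and 162 CPM in aged libraries. Each endothelial cluster took the subclass of its highest marker score, on a scale up to 1. The Esm1 and Igfbp3 cluster scored 0.90 for arterial and 0.60 for venous and peritubular markers, which include Igfbp3. The Tspan8 and Thbs2 cluster scored 0.58 and 0.22, so the arterial name is less firm there.

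**Figure D3:**
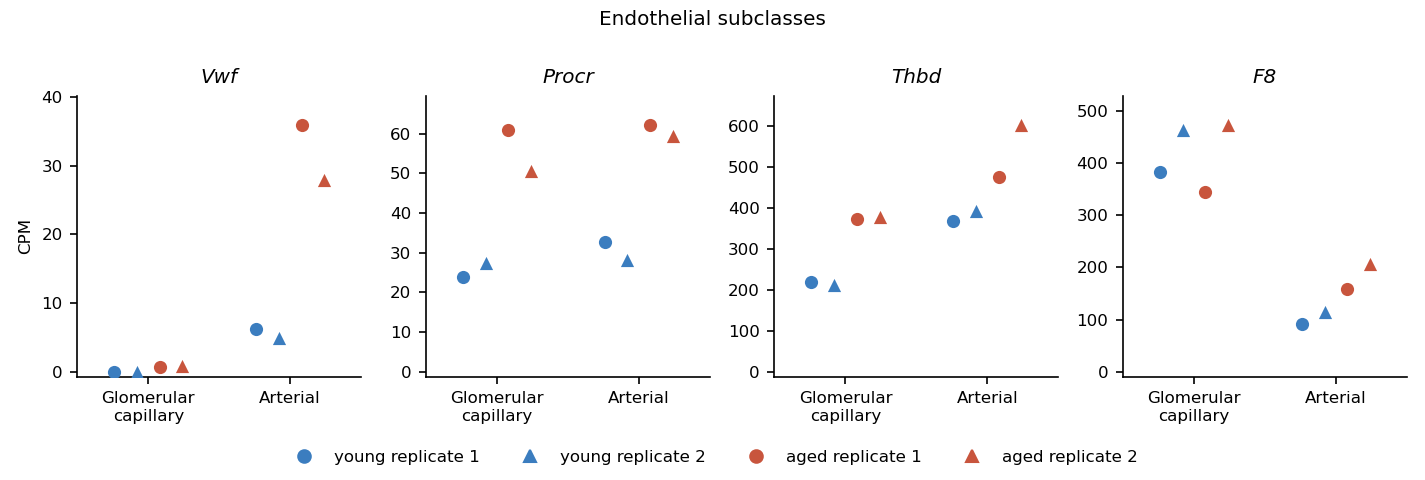
Levels (CPM) of Thbd, Procr, Vwf and F8 by library in glomerular capillary and arterial endothelial cells. Thbd and Procr are higher in both aged libraries in each subclass, Vwf is seen mainly in arterial cells, and F8 separates the groups in arterial but not in capillary cells.

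In mesangial cells the thrombin receptor was higher in the aged libraries. F2r was 2.41-fold higher and Procr, at a low level, 3.97-fold higher. Of the 9 members, 7 passed the filter and 2 were called, both higher, against 3.8% of the 10800 genes tested that were called higher and 5.88% called in either direction. Procr and F3 reached the filter level in 1 young and 2 aged libraries, so they entered the test through the aged group. The sums covered 278 and 187 young and 651 and 487 aged cells.

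F2r measured 358 and 347 CPM in young and 989 and 708 CPM in aged mesangial cells. The lowest aged library was above both young ones, and the log2 difference was 1.22 (SE 0.18, edgeR adjusted p = 0.00437). An F2r UMI was found in 75.5% and 72.7% of young and 92.5% and 91.6% of aged mesangial cells, or 32.6% and 29.8% against 56.8% and 49.5% at 1000 UMIs per cell, and in 2 of 328 B cells (0.610%). Procr had 9 and 3 UMIs in young and 68 and 55 UMIs in aged mesangial sums, or 4.53 and 2.36 CPM against 16.3 and 11.1 CPM (log2 1.84, SE 0.44, edgeR adjusted p = 0.034). Its young libraries were both below the aged pair.

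The remaining mesangial members did not pass the test. F3 measured 2.52 and 4.73 CPM in young and 10.5 and 7.28 CPM in aged cells (log2 1.31, SE 0.47, edgeR adjusted p = 0.133), without overlap, as did 54.6% of all genes tested in the class. Tfpi, at 42.8 and 48.9 CPM in young and 62.5 and 55.0 CPM in aged cells, had a log2 difference of 0.32 (adjusted p = 0.330). Pros1 was close in the groups, at 77.5 and 90.6 CPM against 97.6 and 91.3 CPM. Thbd and F8 did not pass either, and Tfpi2 and Vwf were not tested.

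The 2 mesangial clusters were filled by different libraries, 30 and 18 young and 626 and 472 aged cells in the one and 248 and 169 young and 25 and 15 aged cells in the other. F2r without TMM was 375 and 517 CPM in young and 910 and 683 CPM in aged libraries in the cluster that was mostly aged, and 375 and 367 CPM against 979 and 453 CPM in the cluster that was mostly young. For F2r both clusters had the aged libraries above the young ones. For Procr the groups overlapped in both clusters, on 119 UMIs in the mostly aged cluster and 16 UMIs in the mostly young one. Neither call held without a young library, and Procr was also lost with DESeq2 (adjusted p = 0.0973) and with cells named one by one (0.0767). Without young replicate 1, F2r had a log2 difference of 1.24 (adjusted p = 0.165) and Procr 2.46 (0.208), and without young replicate 2, F2r had 1.20 (0.177) and Procr 1.54 (0.295). Mesangial markers summed to 9983 and 9865 CPM in young and 7210 and 6580 CPM in aged sums, and endothelial markers to 1552 and 1551 CPM against 1833 and 1694 CPM. As a percentage of the endothelial level in the same library, these endothelial markers stood at 11.3% and 11.4% in young and 13.7% and 14.2% in aged sums. Mesangial Procr stood at 18.4% and 8.45% in young and 25.9% and 21.5% in aged sums. The part of endothelial RNA in the Procr result was not tested.

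**Figure D4:**
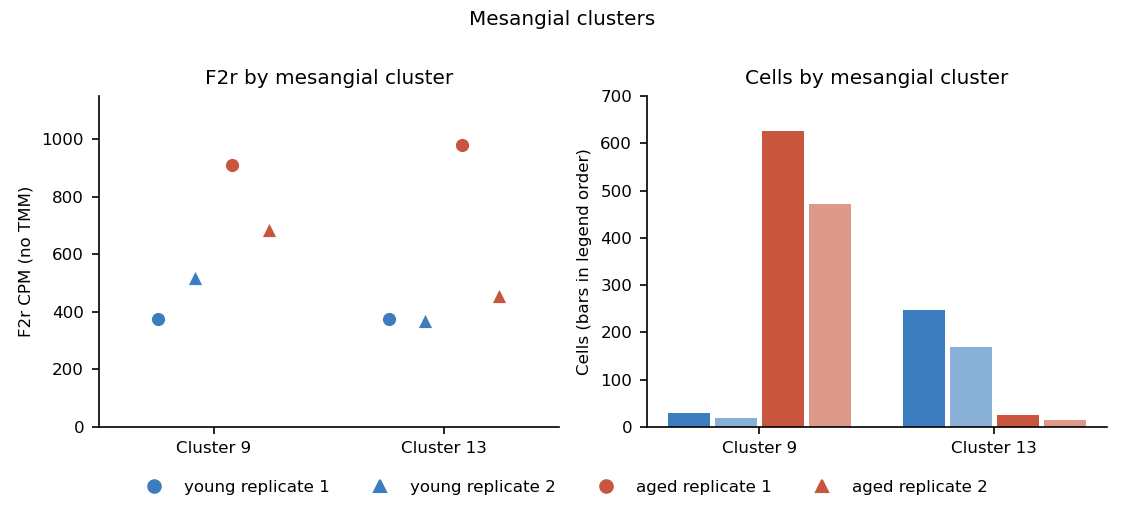
Left, F2r level (CPM without TMM) by library in each of the 2 mesangial clusters, with 1 point per library, and right, the number of cells per library and cluster as bars in the order of the legend. In both clusters the aged libraries lie above the young ones, although the clusters are filled mainly by one age group each.

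Parietal epithelial cells, the tested class with the highest mean F3, were few, at 37 and 70 young and 57 and 43 aged cells. None of the 4967 genes tested in this class was called by edgeR, 0%, with 475 at an unadjusted p under 0.05, and DESeq2 called 12. F3 had 12 and 20 UMIs in young and 121 and 137 UMIs in aged sums, or 59.4 and 90.3 CPM against 366 and 399 CPM. Both aged libraries were well above the young ones, and the log2 difference was 2.23 (SE 0.30), but the edgeR adjusted p was 0.116. An F3 UMI was seen in 24.3% and 15.7% of young and 64.9% and 67.4% of aged parietal epithelial cells, at medians of 3530 and 1152 UMIs per young cell and 4672 and 5530 per aged cell. Thinned to 1000 UMIs, which left out 26 cells of young replicate 2 and 1 of aged replicate 1, the shares were 5.41% and 11.4% in young and 33.9% and 14.0% in aged cells, still without overlap. Groups did not overlap for 42.7% of the genes tested.

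The F3 call in this class turned on the setting. It was called under 7 of 15 alternatives, among them DESeq2 (adjusted p = 0.00802), no filter (0.000294), the replicate block (1.36e-11), and the fits without aged replicate 1 (log2 2.26, 1.05e-07) and without aged replicate 2 (2.15, 6.60e-07). The log2 difference was 1.89 to 2.56 over all 15 and the adjusted p ran up to 0.829. Tfpi, the inhibitor of the factor VIIa and tissue factor complex, measured 39.6 and 49.7 CPM in young and 178 and 111 CPM in aged cells (log2 1.57, SE 0.41, edgeR adjusted p = 0.301) and was called under 4 alternatives, such as the fit without aged replicate 2 (1.86, adjusted p = 0.000193). F2r was lower in both aged libraries, at 129 and 176 CPM in young and 118 and 125 CPM in aged cells. It did not pass the test (log2 -0.44, SE 0.29, edgeR adjusted p = 0.653), where 42.7% of the genes tested had groups that did not overlap. Pros1 overlapped between the groups, and the other 5 members were not tested. Markers of kidney tubule, neighbours of the capsule, summed to 836 and 143 CPM in young and 7779 and 88.5 CPM in aged sums, with aged replicate 1 far above the other libraries. Parietal epithelial markers summed to 1693 and 3101 CPM in young and 1793 and 2174 CPM in aged sums. Tubule cells also carried F3 UMIs, and the part of tubule RNA in the F3 result was not tested. The summed level of 18 genes that answer tissue dissociation was 20190 and 24079 CPM in young and 9519 and 15913 CPM in aged sums, and its part was not tested either.

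**Figure D5:**
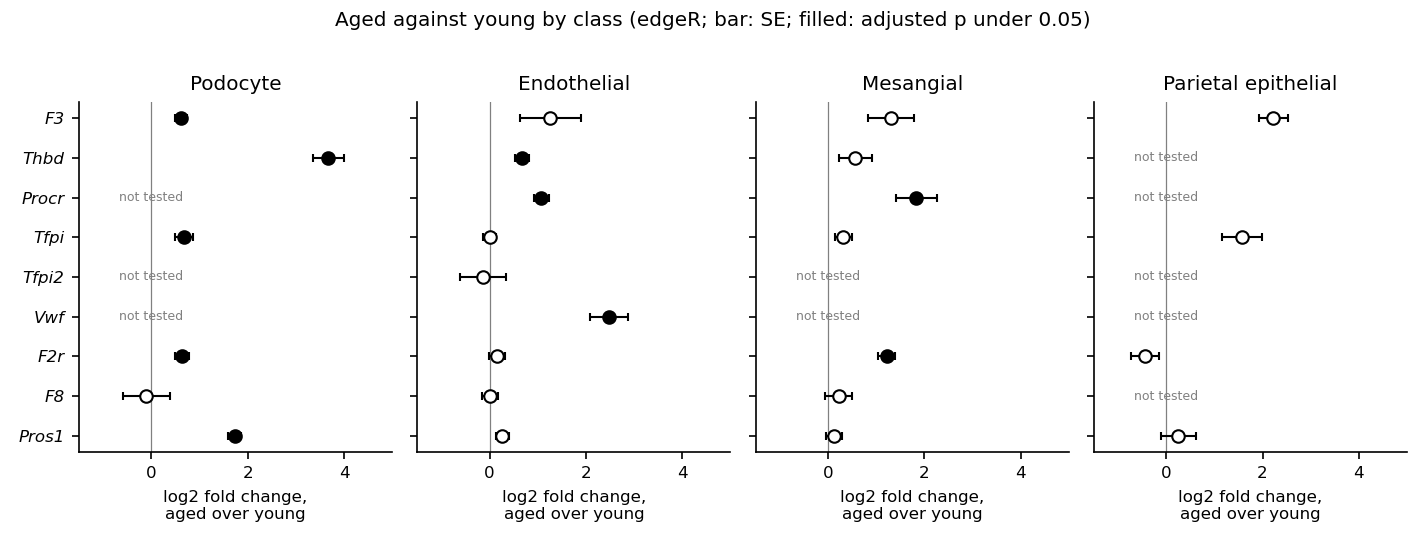
Log2 difference (aged minus young, x axis) with its standard error as a bar for each member tested in each class, with filled points for called members. Among the called members Thbd in podocytes (3.68), Vwf in endothelium (2.48), Procr in mesangial cells (1.84) and Pros1 in podocytes (1.73) stand farthest from 0, and F3 in parietal epithelial cells (2.23) is not called.

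Whether a member's difference between ages itself differed between classes was tested for the 6 pairs of classes, with the library as a block. Between podocytes and endothelium, where 5% of 12937 genes were called, the age difference in podocytes was larger for Thbd (by 2.99 on the log2 scale, SE 0.31, edgeR adjusted p = 6.80e-06) and for Pros1 (by 1.45, SE 0.12, edgeR adjusted p = 5.05e-07). The corresponding Tfpi value was 0.63 (SE 0.17, adjusted p = 0.0395), and it was lost without any of the 4 libraries (0.52 and 0.336 without young replicate 1, 0.72 and 0.0550 without young replicate 2, 0.63 and 0.156 without aged replicate 1, 0.59 and 0.133 without aged replicate 2). Between podocytes and mesangial cells, where 4.5% of 12587 genes were called, Thbd (2.93, SE 0.49, adjusted p = 0.000118) and Pros1 (1.55, SE 0.18, adjusted p = 3.78e-07) again changed more in podocytes. All these Thbd values use the 584 podocytes of young replicate 2 described above.

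F2r changed more in mesangial cells than in endothelium, by 1.03 on the log2 scale (endothelial minus mesangial -1.03, SE 0.15, edgeR adjusted p = 5.42e-05), where 3.15% of 12738 genes were called. F3 changed less in podocytes than in parietal epithelial cells (podocyte minus parietal -1.70, SE 0.32, edgeR adjusted p = 0.00685), where 0.644% of 10707 genes were called. That F3 value was lost without young replicate 1 (-1.47, adjusted p = 0.482) and without young replicate 2 (-2.03, 0.141). No member was called between endothelium and parietal epithelial cells (33 of 11680 genes, 0.283%) or between mesangial and parietal epithelial cells (7 of 9240 genes, 0.0758%). The smallest adjusted p among members there was 0.120 for Tfpi in the former pair and 0.147 for F2r in the latter.

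Other genes of clotting, anticoagulation, fibrinolysis, platelet receptors and endothelial platelet inhibition, 48 in all, were taken from fixed lists. Of these, 44 had a UMI in a named class. In endothelium 23 passed the filter, 4 were higher and 2 lower in the aged libraries, and their median log2 difference was 0.19 against -0.01 over all genes tested, of which 3.38% were called higher and 5.02% in either direction. Serpine2, which encodes protease nexin-1, an inhibitor of thrombin, measured 26.9 and 33.2 CPM in young and 96.0 and 105 CPM in aged endothelium (log2 1.71, SE 0.15, edgeR adjusted p = 2.50e-05). Both aged libraries were above both young ones.

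Ptgis, prostacyclin synthase, whose product restrains platelets, had 1.04 and 3.32 CPM in young and 21.2 and 27.2 CPM in aged endothelium (log2 3.56, SE 0.34, edgeR adjusted p = 3.17e-05). Plaur, the urokinase receptor, was higher by 0.72 on the log2 scale (adjusted p = 0.0467). Hs3st1, an enzyme that makes the antithrombin-binding form of heparan sulfate, fell from 7.30 and 5.88 CPM to 1.23 and 1.79 CPM (log2 -2.17, SE 0.34, adjusted p = 0.00162). Klkb1, plasma prekallikrein, was lower by 0.93 (log2 -0.93, adjusted p = 0.0439). As for the members, no gene of endothelium was called without either young library.

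In mesangial cells 18 of the 48 passed the filter and 3 were higher, with a median of 0.29 against -0.01, where 3.8% of all genes tested were called higher and 5.88% in either direction. Among these were Serpine2 (1867 and 1652 CPM in young, 3599 and 3205 CPM in aged, log2 0.90, edgeR adjusted p = 0.0154) and Anxa5, annexin A5, a protein that covers phosphatidylserine (log2 0.76, adjusted p = 0.0289). In podocytes 15 passed, with a median of 0.11 against 0.01 for all genes. In parietal epithelial cells 14 passed and none was called, with a median of 0.31 against 0.03. In arterial cells 18 passed and 4 were higher, with a median of -0.02 against -0.01 for all genes. Of all genes tested there, 3.14% were called higher and 5.09% in either direction. Among the 4 were Serpine2 (log2 0.91), Plat, tissue plasminogen activator (0.69), and Plaur (0.61), with edgeR adjusted p of 0.00541, 0.0289 and 0.0314.

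Lists of other programmes were also measured beside the members. Of 8 endothelial activation genes, 7 were higher in aged endothelium, among them Selp, which encodes P-selectin (2.78 and 4.60 CPM against 20.7 and 39.9 CPM), Il6 (log2 2.68) and Vcam1 (log2 2.15), with edgeR adjusted p of 0.000163, 3.94e-07 and 8.38e-05. In mesangial cells 4 of the 6 tested were higher. Of 18 genes that answer tissue dissociation, 4 were higher and 2 lower in podocytes, 0 higher and 5 lower in mesangial cells, and 3 higher and 0 lower in endothelium. In parietal epithelial cells none of the 18 was called, with a median log2 difference of -0.75 against 0.03 over all genes tested. Of all genes tested, 6.11% were called in podocytes, 5.88% in mesangial cells and 5.02% in endothelium. The part of either programme in the members' results was not tested.

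Monocytes and dendritic cells, the class with the highest Thbd outside endothelium, showed 77.9 and 63.8 CPM in young and 66.3 and 86.8 CPM in aged libraries, which overlapped (log2 -0.03, edgeR adjusted p = 0.982, where 3.35% of 5042 genes were called). In the smooth muscle and renin class F3 lay at 44.4 and 45.5 CPM in young and 51.8 and 69.7 CPM in aged libraries and did not pass the test (log2 0.37, adjusted p = 0.793, where 1.49% of 3751 genes were called). In the same class Serpine2 was higher in the aged libraries by 1.79 on the log2 scale (edgeR adjusted p = 7.03e-05).

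The genes most like each member in pattern were found by Pearson correlation of log2(CPM + 1) over 38 class and library sums that share libraries and depth, among 13410 genes. Those most like F3 were Nbl1 (r = 0.951), Col4a5 (0.950) and Dtna (0.939). F8 was most like Tspan7 (0.897), Emcn (0.892) and Tek (0.879), the last 2 of which are endothelial genes. For Pros1 they were Cdc42bpb (0.919), Evi5 (0.917) and Ikbip (0.916), for F2r Eif4g2 (0.855), Ski (0.837) and Irf1 (0.834), and for Thbd Dram1 (0.839), Pi16 (0.798) and Rsad2 (0.792). The likeness is a description over these sums.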

How the data were processed

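The authors deposited UMI counts per gene and cell barcode for 4 libraries. Per the labels' protocols Cell Ranger 3.1.0 was used, but the file headers and the submitters' processing notes name Cell Ranger 6.0.1; the notes also name Partek and GRCm38, and the annotation release is not given in the sources used here (99.6% of gene IDs were in GENCODE vM21). Cells with at least 500 genes and at most 20% mitochondrial UMIs were kept, likely doublets were removed by Scrublet score, and cells were clustered (scanpy 1.11.5, leidenalg 0.10.2, 2000 variable genes, 30 components, 15 neighbours, resolution 1) without the members and 48 pathway genes. The thresholds that name clusters from markers (a level of 0.35 and 3 markers, mixed at 0.25) were set after seeing the data. The rule left out 1 cluster with endothelial markers (1.71% to 5.51% of cells) that had the platelet gene Gp1bb among its top 10 genes and all mixed clusters. Deposited counts were summed per class and library where each library had 20 cells, and tested with edgeR 4.0.16 (TMM, filterByExpr, quasi-likelihood, age as the only term, Benjamini-Hochberg over all genes of the class, R 4.3.3). The code of the test was run on simulated counts with the same spread for every gene, which does not measure its error rates on these libraries. DESeq2 1.42.0, other factors, filters, namings and leaving out each library were alternatives. Intervals and floors of 3 counts cover counting error only. Members and lists were chosen with earlier results of these data known; the text names every member and, per class, at most 4 called pathway genes in each direction; 1 gene of the lists is not reported here. Replicates of a group differed by more than sampling noise (chi-square per degree of freedom 2.10 to 16.5).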

Additional observations from a re-analysis of the deposited data

Results flagged for a closer look

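For 7 pairings of a gene with 2 cell classes, the difference between aged and young libraries differed between the classes by the interaction test. In podocytes against endothelium these were Thbd (2.99 on the log2 scale, edgeR adjusted p = 6.80e-06), Pros1 (1.45, adjusted p = 5.05e-07) and Tfpi (0.63, adjusted p = 0.0395). In podocytes against mesangial cells these were Thbd (2.93, adjusted p = 0.000118) and Pros1 (1.55, adjusted p = 3.78e-07). F3 differed between podocytes and parietal epithelial cells (-1.70, adjusted p = 0.00685), and F2r between endothelium and mesangial cells (-1.03, adjusted p = 5.42e-05). Pros1 is the member whose podocyte difference was called under all alternatives tried and in each interaction fit without 1 library against endothelium and mesangial cells.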

How the results depend on the processing

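Of 185 refits of a called age difference, 142 kept the direction and the call, 42 kept the direction only and 1 was reversed, podocyte Thbd with mixed cells kept (-0.20). Of 293 refits of a difference not called, 17 were called in the same direction and 27 changed sign. The cause of these changes was not tested. Genes called in podocytes (664) were 269 with DESeq2, 247 at resolution 2, 45 with mixed cells kept and 207 with cells named one by one, and members called (5) were 3, 2, 1 and 2. In endothelium 0 genes and 0 members were called with no filter on low counts (651 and 3 with it), with 2135 genes at an unadjusted p under 0.05. In mesangial cells (635 genes, 2 members) DESeq2 called 397 and 1, no filter 1322 genes, the replicate block 1110 genes, mixed cells kept 1078 and 4, and naming one by one 1 member. In parietal epithelial cells (0 and 0) genes and members were 12 and 1 with DESeq2, 99 and 2 with no filter, 257 and 2 with the block, 215 and 2 at resolution 2, and 64 and 1 one by one. The block gave 1132 genes in capillary cells (604) and 918 genes and 5 members in arterial cells (487 and 3).

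Leaving out 1 library at a time gave 308 to 931 genes and 2 to 5 members in podocytes, 0 to 753 and 0 to 3 in endothelium, 51 to 1810 and 0 to 3 in mesangial cells, 0 to 313 and 0 to 2 in parietal epithelial cells, and 25 to 491 and 0 to 4 in arterial cells. The lone library of a group was then assumed to vary like the others. Interaction calls of members ran from 0 to 2 for podocyte and parietal epithelial cells, 0 to 1 for endothelial and parietal, and 0 to 2 for mesangial and parietal. Signs turned, without a call, for podocyte F8 (-0.22 to 0.011), endothelial Tfpi (-0.10 to 0.12), Tfpi2 (-0.78 to 0.78), F8 (-0.24 to 0.23) and F2r (-0.065 to 0.35), parietal Pros1 (-0.15 to 0.54), capillary Tfpi2 (-0.80 to 0.77), F2r (-0.10 to 0.32), Tfpi (-0.13 to 0.10) and F8 (-0.33 to 0.13), and arterial Tfpi (-0.23 to 0.13) and F2r (-0.056 to 0.86, called without aged replicate 2). Other changes of sign were endothelial F8 with the block (-0.0048), endothelial Tfpi at 10% mitochondrial UMIs (-0.013), mesangial Thbd and F8 with mixed cells kept (-1.56 and -2.16, both called) and one by one (-0.024 and -0.22), and parietal F2r with mixed cells kept (0.12).

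Replicate numbers gave 2 pairs, with correlations of deviations of 0.019 in podocytes, 0.108 in endothelium, 0.0543 in mesangial and 0.463 in parietal epithelial cells. These pairs are too few to show pairing, and no label ties a number to a shared animal or batch. The replicate block left 882 genes and 5 members called in podocytes and 847 and 3 in endothelium. Parietal epithelial cells at 10% mitochondrial UMIs were not run, as fewer than 20 cells were left in a library.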

Other observations

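Macrophages could not be compared between the ages, since the young libraries held 3 and 10 of them and the aged ones 591 and 510. In the aged libraries they had 24 and 39 Vwf UMIs (6.66 and 7.73 CPM), which were 17.6% and 31.7% of the Vwf UMIs of named cells there. Vwf in aged endothelium, also without TMM, was 7.08 and 5.31 CPM. The aged macrophages also had 53 and 113 Thbd UMIs (14.7 and 22.4 CPM), 56 and 70 Pros1 UMIs, 40 and 68 Tfpi UMIs and 19 and 23 Procr UMIs.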
